A study of Mus musculus with 58 samples.

Results

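Kidney RNA was measured in male mice that had received 1 of the 2 lowest gavage doses of tetrachloroethylene (PCE), and those kidneys were compared with kidneys of mice given the vehicle of the PCE experiment. The comparison takes 8 libraries, chosen by their labels alone: 3 at 0.22 mmol/kg (30 mg/kg), 3 at 0.67 mmol/kg (100 mg/kg) and 2 vehicle libraries. They are 8 of 29 kidney libraries and of 58 libraries in the series, which also covers liver, higher doses and trichloroethylene (TCE). The comparison itself was chosen with earlier results of these data known. The question was whether gene activity in the kidney responds to PCE at the bottom of its dose range. All mice received a single dose, by gavage at 5 mL/kg between 7 and 9 in the morning, in 5% Alkamuls, a surfactant, in saline, so vehicle and dosed mice share the surfactant and the handling. The protocols name the B6C3F1/J strain, a hybrid, with animals 5 to 6 weeks old at supply, whereas a strain label names C57BL/6. How long after dosing the kidneys were taken is not given in the sources used here. Matching TCE groups, with 3 libraries each, received 24 mg/kg (0.22 mmol/kg), 80 mg/kg (0.67 mmol/kg) or vehicle. The labels do not say whether replicates came from separate animals or what was pooled, so a p-value here reflects only the spread among libraries, which may be technical. In the main test that spread was taken within groups over all 29 kidney libraries, higher doses and TCE included.

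PCE is a chlorinated solvent used in dry cleaning and degreasing. In rodents it is oxidised by cytochrome P450 enzymes to trichloroacetic acid, which activates PPARα, a nuclear receptor that turns on genes of fatty acid oxidation. A smaller flux is joined to glutathione, cut down to a cysteine conjugate by gamma-glutamyltransferase and dipeptidases, and split by beta-lyases in the proximal tubule into reactive products, or capped by N-acetylation and excreted as a mercapturate. The proximal tubule reabsorbs most of the filtered solutes and is the part of the nephron that such conjugates are known to injure. Injured tubules make Havcr1 (kidney injury molecule KIM-1) and Lcn2, re-enter the cell cycle and attract macrophages, the phagocytes that clear dead cells and display complement C1q and lysozyme.

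The 8 libraries held 26769349 to 31858055 counts in genes. Their most abundant gene was Kap, a proximal tubule gene driven by androgen in male mice, with 4.38 to 5.25% of the counts. Levels are given as CPM, counts scaled to a common library size of 1000000, a unit that compares 1 gene between libraries and not genes with each other. The tissue label matched the markers. Slc34a1, the phosphate transporter of the proximal tubule, had a mean of 13030 CPM in vehicle, and Umod (thick ascending limb), Aqp2 (collecting duct) and Nphs1 (podocyte) had 39.8, 235 and 38.1. Among the libraries used only as a reference, TCE vehicle replicate 3 had a ribosomal RNA precursor as its most abundant feature (5.49% of counts), and TCE 0.67 mmol/kg replicate 3 held 5332 CPM over the adrenal markers against 3.27 to 16.8 in the 8 libraries. Among the 6 dosed PCE libraries, 3 of 86 values checked had an end library far from the rest, where chance gives about 1 in 20. The checks share these libraries, so that rate does not cover the fact that all 3 fell in PCE 0.67 mmol/kg replicate 1. Without that library edgeR called 0 genes at the low doses.

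No gene passed the test at the low doses. edgeR's quasi-likelihood test, fitted over all 29 kidney libraries with Benjamini-Hochberg adjustment over 14197 tested genes, called 0 genes (0.0%) at an adjusted p under 0.05 for both doses together, and 0 for either dose alone. At an unadjusted p under 0.05 it listed 913 genes (6.43%), of which 523 were higher (3.68%) and 390 lower (2.75%). The smallest adjusted p of a gene with an established name was 0.285. DESeq2 called 5: C1qb, Lyz2, Cyp24a1 and Gsdmc3 as higher and Cdip1 as lower, the set chosen by that call and not by the naming rule. The DESeq2 log2 fold change of Gsdmc3 was 15.79, an extreme value that is not a usable size of change. The genes described next are therefore those with the smallest unadjusted p in each direction, and edgeR called none of them. In 980 genes (6.9%) all 6 dosed libraries lay above both vehicle libraries, and in 779 (5.49%) all lay below. The median log2 fold change over all tested genes was 0.00. Gene lists used below were also chosen with earlier results of these data known. Their counts beside the share of all genes are therefore descriptions and not independent support.

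Macrophage genes were higher after the low doses in every one of the 10 markers tested, with a median log2 fold change of 0.88. Lyz2 (lysozyme, chr10:117277541-117282272 in the RefSeq annotation of GRCm38.p6) gave 6.65 and 6.5 CPM in vehicle and 10.5, 15.4 and 14.2 at 0.22 mmol/kg, and at 0.67 mmol/kg it gave 15, 14.5 and 20.7. C1qb (chr4:136880126-136886200), which encodes a chain of the complement component that tags debris, measured 5.03 and 4.01 in vehicle, 7.27, 12.7 and 11.5 at the lower and 10.4, 10.2 and 11.3 at the higher dose. In both genes every dosed library lay above both vehicle libraries. The log2 fold change was 1.19 ± 0.27 (SE) for Lyz2 and 1.22 ± 0.28 for C1qb, with unadjusted p of 0.000199 and 0.000215 and an adjusted p of 0.711 in edgeR for both. The 2 other C1q chains were also higher, by 0.86 for C1qa and 0.91 for C1qc. Fcgr1 (the high-affinity IgG receptor), Emr1 (F4/80, the classical mouse macrophage antigen) and Mrc1 (mannose receptor) were higher by 1.03, 1.08 and 0.79. Those 7 of 10 markers had an unadjusted p under 0.05 (3.68% of all genes), and the libraries did not overlap in 6 (6.9% of all genes). Cd68, Cd14 and Csf1r (the receptor for the macrophage growth factor) had smaller differences of 0.49, 0.44 and 0.30, none at that level. Without vehicle replicate 2 the count at that p was 4. Without vehicle replicate 1 the median was 0.94, and without replicate 2 it was 0.77. Because the tissue is bulk, fewer or more cells of a type cannot be told apart from less or more RNA per cell. At the higher doses the summed macrophage markers overlapped both vehicle and the low doses. They were 93.4 to 110 CPM in vehicle, 122 to 166 at the low doses, 86.3 to 140 at 2 and 85.6 to 122 at 6 mmol/kg. Lyz2 measured 8.46, 9.26 and 8.33 at 2 and 10, 7.79 and 8.64 at 6 mmol/kg. These Lyz2 values all lay above both vehicle libraries and below every low-dose library.

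Further leukocyte genes stood among the 10 higher genes with the smallest p. Itgb2 (the beta chain of leukocyte integrins) measured 2.38 and 2.23 CPM in vehicle, 3.29, 5.67 and 5.39 at 0.22 and 3.85, 4.27 and 4.06 at 0.67 mmol/kg. Rac2 (the haematopoietic Rac GTPase that drives the phagocyte oxidase) measured 1.92 and 1.31, then 2.15, 3.46 and 3.34 and 3, 3.75 and 3.74. Their log2 fold changes were 0.93 ± 0.24 and 1.01 ± 0.25 (SE). Ly86 (MD-1, a partner of a Toll-like receptor relative), Tnfaip8l2 (a brake on immune receptor signalling) and Pik3r5 (a regulatory subunit of leukocyte PI3-kinase) were higher by 1.12, 1.22 and 1.22. T and NK cell markers had a median of 0.80 over 6 genes, at a low summed level of 1.08 to 1.54 CPM in vehicle and 1.83 to 3.13 at the low doses. Summed B cell markers measured 7.58 to 11.6 CPM in vehicle and 11.6 to 19.2 after dosing, and those ranges overlapped slightly. Of the 4 B cell markers tested only 2 were above 0, with a median log2 fold change of 0.13. Leaving out 1 library at a time moved that median between −0.34 and 0.83. Neutrophil markers summed to 0.988 to 1.04 and 1.11 to 3.27 CPM, with the top value in 1 library, PCE 0.67 mmol/kg replicate 1.

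The TCE vehicle mice received the same surfactant and no chemical, and their macrophage genes resembled those of the low PCE doses. Lyz2 measured 9.78, 10.7 and 15.8 CPM in the 3 TCE vehicle libraries and C1qb 8.33, 13.2 and 8.9, within or close to the range of the dosed PCE libraries. In 7 of 10 macrophage markers all 3 TCE vehicle libraries lay above both PCE vehicle libraries, as they did in 13.4% of all tested genes. Set against the TCE vehicle, the low PCE doses gave a macrophage median of 0.19 in place of 0.88. The named genes had been chosen for their difference from these 2 libraries. In 10 of the 10 higher and 9 of the 10 lower ones the 3 TCE vehicle libraries all lay beyond both PCE vehicle libraries, on the side of the dosed ones. Of all tested genes they lay above in 13.4% and below in 14.1%. Because the named genes were chosen in that way, their counts are no independent support. Whether the PCE vehicle libraries sit low or the dosed libraries sit high cannot be told apart within the PCE experiment, where these 2 libraries are the only controls.

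**Figure D1:**
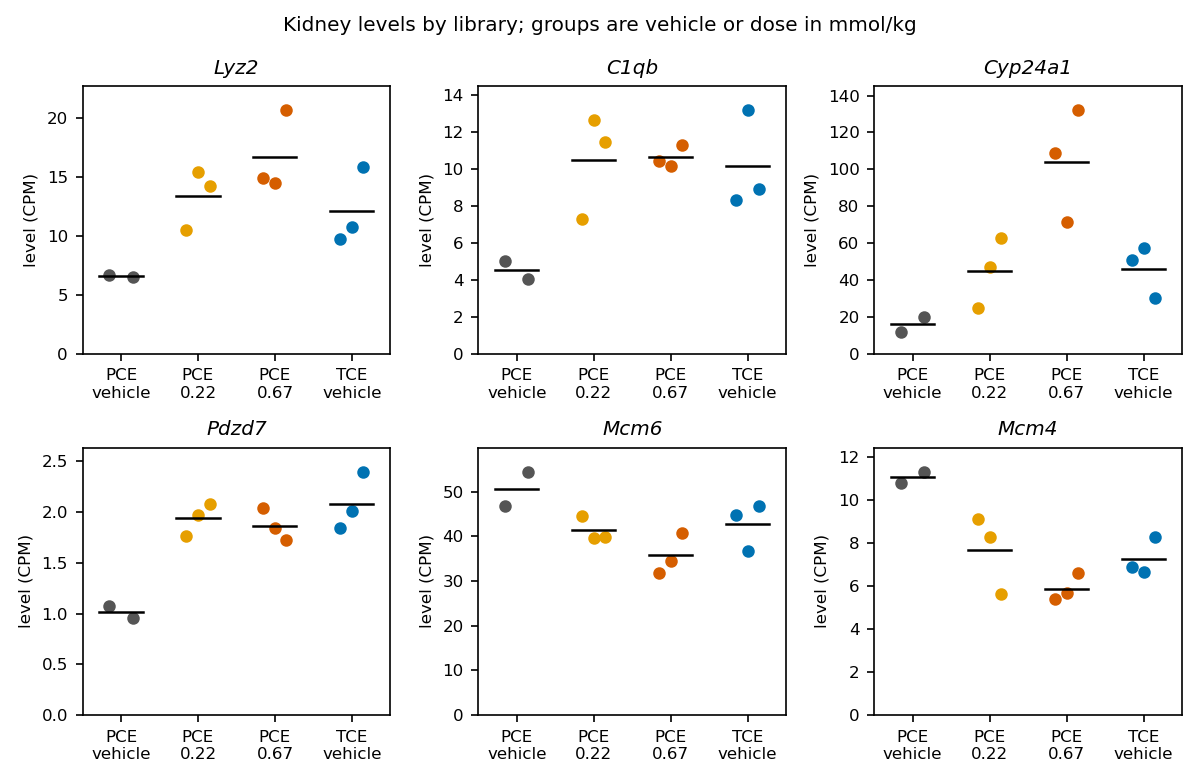
Levels of selected genes in each kidney library, in CPM on linear axes from 0, for PCE vehicle, PCE 0.22 mmol/kg, PCE 0.67 mmol/kg and TCE vehicle; each point is 1 library and the horizontal bars are group means, with no error bars. For Lyz2 the 2 PCE vehicle libraries lie at 6.65 and 6.5 CPM, below the dosed PCE libraries, while the TCE vehicle libraries lie at 9.78, 10.7 and 15.8.

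DNA replication genes were lower after the low doses. Of 25 tested genes of the replication and cell cycle list, 24 were below 0, with a median log2 fold change of −0.54. 9 had an unadjusted p under 0.05, all in the lower direction, against 2.75% of all genes. In 14 of the 25 the dosed libraries all lay below both vehicle libraries, against 5.49% of all genes. Without 0.22 mmol/kg replicate 2 the count at that p was 14, and without vehicle replicate 2 it was 6. Mcm2 to Mcm7 encode the ring-shaped helicase that opens DNA at replication origins and is made mostly in cells that enter the cycle. Mcm6 measured 46.8 and 54.5 CPM in vehicle, 44.5, 39.7 and 39.8 at 0.22 and 31.9, 34.6 and 40.8 at 0.67 mmol/kg. Mcm4 measured 10.8 and 11.3, then 9.1, 8.26 and 5.61 and 5.38, 5.66 and 6.6, and Mcm3 8.64 and 10.3, then 6.8, 6.74 and 3.74 and 5, 4.79 and 5.3. None of these 3 genes overlapped between vehicle and dosed libraries. The log2 fold changes were −0.40 ± 0.10, −0.72 ± 0.19 and −0.81 ± 0.24 (SE), with unadjusted p of 0.000574, 0.000928 and 0.00226 in edgeR and adjusted p of at least 0.711. Without vehicle replicate 1 the list median was −0.55, and without replicate 2 it was −0.44.

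Genes of other replication steps had the same sign. Ccne1 (cyclin E1, which starts S phase) had a log2 fold change of −0.91, Rrm2 (ribonucleotide reductase, which makes deoxynucleotides) of −0.78 and Tk1 (thymidine kinase) of −0.67. Hells (a chromatin remodeller of dividing cells) differed by −0.94, Mcm2 by −0.47 and Pcna (the sliding clamp of DNA polymerase) by −0.23. At the dose of 0.22 mmol/kg the list median was −0.53 and at 0.67 mmol/kg −0.57, with no further drop in Mcm4 at the higher doses. Its mean was 11.1 CPM in vehicle, 7.66 at 0.22, 5.88 at 0.67, 9.7 at 2 and 12.1 at 6 mmol/kg. In the TCE vehicle Mcm4 measured 6.88, 6.65 and 8.28 CPM and Mcm6 44.9, 36.8 and 46.8. All 3 TCE vehicle libraries lay below both PCE vehicle libraries in 21 of the 25 genes, against 14.1% of all genes. Against the TCE vehicle the list median of the low PCE doses was 0.12, with the opposite sign.

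E2F factors, which switch on replication genes at the start of S phase, bind variants of a short GC-rich motif. Mcm2, Mcm3, Mcm4 and Mcm6 lay lower after dosing in the 8 libraries. Parts of the promoters of 3 Mcm genes are therefore shown, chosen because these stretches hold the motif. The letters searched were TTTCCCGC, TTTGGCGC and TTTCGCGC on both strands, in the 300 bases from 250 before to 50 after each RefSeq start of GRCm38.p6. Capitals mark a match, and where 2 matches overlap the capitals run on. The Mcm6 stretch is chr1:128359706-128359855 on the minus strand, the 150 bases before the start, with 3 matches. The Mcm7 stretch is chr5:138171984-138172083 on the minus strand, with 1 match, and the Mcm3 stretch is chr1:20820266-20820294 on the minus strand, 29 bases at offsets 18 to 46 from the start base (offset 0), with 2 matches.
Mcm6: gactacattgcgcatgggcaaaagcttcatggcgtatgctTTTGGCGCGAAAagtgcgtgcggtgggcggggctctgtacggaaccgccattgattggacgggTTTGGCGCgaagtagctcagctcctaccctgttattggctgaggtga
Mcm7: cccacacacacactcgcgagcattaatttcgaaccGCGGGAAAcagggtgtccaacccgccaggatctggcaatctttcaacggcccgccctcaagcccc
Mcm3: gGCGGGAAAacttgggaagtTTTGGCGCc

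Any of the 3 motifs stood in 606 of 32851 promoters (1.84%). TTTCCCGC was in 1.07% of them, TTTGGCGC in 0.514% and TTTCGCGC in 0.323%. Of the 25 tested replication genes 21 were in the promoter table. Of these, 6 held a match in at least 1 promoter: Cdk1, Hells, Mcm3, Mcm5, Mcm6 and Mcm7. This counts genes, whereas the 1.84% counts promoters, 32851 of them for 27025 symbols, so the shares are not strictly alike. Among the 9 genes with an unadjusted p under 0.05, 8 were in the table and 3 held a match (Hells, Mcm3 and Mcm6). Mcm5 and Mcm7 were not among those 9 genes. Mcm2, which is also in the table, held no match, nor did a RefSeq start of Mcm7 other than the printed one. Mcm5, whose stretch is not printed, held TTTCGCGC and TTTGGCGC. A match is a description of the letters and says nothing about binding in these kidneys.

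**Figure D2:**
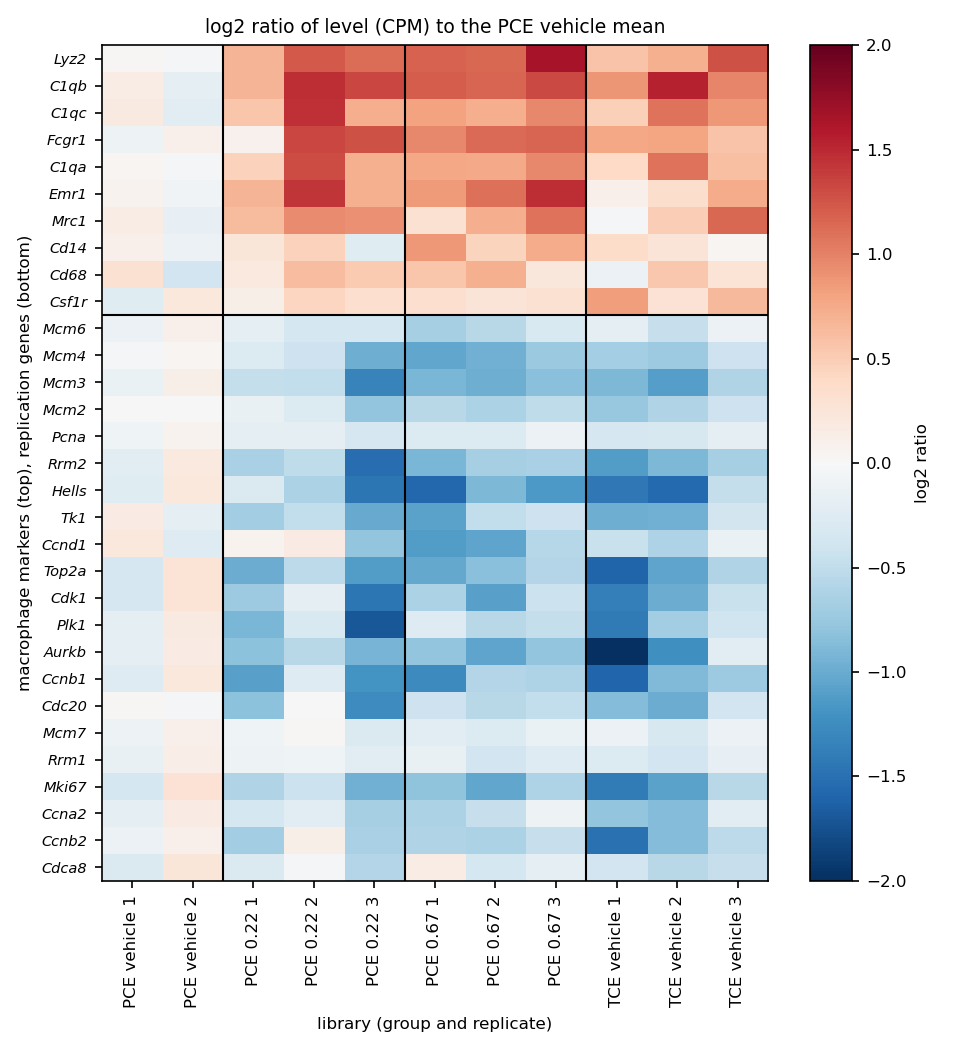
Level of 10 macrophage markers (top rows) and 21 replication genes (bottom rows) in each library (columns), as the log2 ratio of CPM to the gene's PCE vehicle mean, red for higher and blue for lower. The PCE vehicle columns lie near 0 by construction, the dosed PCE columns are mostly red above and blue below, and so are the TCE vehicle columns.

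Interferon-induced genes were higher in 25 of 27 tested members, with a median log2 fold change of 0.43. Interferons are antiviral cytokines, and their target genes also mark activated macrophages. Isg15 (a ubiquitin-like modifier) measured 1.19 and 1.11 CPM in vehicle, 1.77, 2.42 and 2.37 at 0.22 and 1.5, 2.29 and 2.57 at 0.67 mmol/kg. Oasl2 (of the oligoadenylate synthetase family) measured 3.15 and 2.9, then 4.36, 6.57 and 6.54 and 5.46, 4.73 and 5.66. The log2 fold changes were 0.90 ± 0.32 and 0.87 ± 0.29 (SE). Gbp2 (a guanylate-binding GTPase), Oas2, Bst2 (tetherin) and Psmb8 (an immunoproteasome subunit) were higher by 0.95, 0.73, 0.57 and 0.56, and these 6 genes had an unadjusted p under 0.05, against 3.68% of all genes. Without vehicle replicate 2 the count was 0. With the TCE vehicle as control the interferon median was −0.01. NF-κB and cytokine genes had a median of 0.33 over 19 genes, 4 of them at an unadjusted p under 0.05: Il1b (interleukin-1 beta, 0.96), Ccl5 (a T cell chemokine, 1.26), Bcl3 (an NF-κB co-regulator, 0.70) and Ccl2 (the chemokine that recruits monocytes). Here too the background was 3.68%, and without vehicle replicate 2 the count was 1. With the TCE vehicle as control the median was 0.08. Ccl2 measured 0.231 and 0.159 CPM in vehicle, 0.822, 0.76 and 0.899 at the lower and 0.423, 0.417 and 2.05 at the higher dose, a difference of 2.19 ± 0.76 (SE). Summed macrophage markers moved with these lists, from 93.4 to 110 CPM in vehicle to 122 to 166 after dosing, and their part in the result was not tested.

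Collagen and matrix genes were higher in 23 of 29 members, with a median of 0.39 and 11 at an unadjusted p under 0.05, against 3.68% of all genes. That count rested on single libraries: it was 0 without vehicle replicate 1 and 5 without vehicle replicate 2, 3 without 0.22 mmol/kg replicate 2, and 7 and 6 without 0.67 mmol/kg replicates 2 and 3. Col3a1 (fibrillar type III collagen) measured 22.1 and 26.6 CPM in vehicle, 33.5, 55.3 and 48.5 at 0.22 and 28, 33 and 38.8 at 0.67 mmol/kg. Lum (lumican, a proteoglycan of collagen fibrils) measured 0.499 and 0.701, then 1.42, 1.59 and 2.19 and 1.65, 1.35 and 1.66. Their log2 fold changes were 0.68 ± 0.29 and 1.43 ± 0.51 (SE). Dcn (decorin), Col6a2, Fbn1 (fibrillin), Mmp2 (a gelatinase) and Acta2 (smooth muscle actin) were higher by 0.77, 0.72, 0.62, 0.56 and 0.45. Adamts2, which trims the ends of procollagen, was among the 10 named higher genes and measured 0.96 and 1.72 CPM in vehicle, 2.31, 3.73 and 2.88 at 0.22 and 2.58, 2.78 and 3.67 at 0.67 mmol/kg, a difference of 1.14 ± 0.28 (SE). Fibroblast markers summed to 44.3 to 55.9 CPM in vehicle and 64 to 104 after dosing, smooth muscle and renin cell markers to 116 to 125 and 137 to 193. The part of such cells in the matrix result was not tested. Against the TCE vehicle the matrix median was 0.12 and the fibroblast median 0.10.

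Tubular injury genes were mostly higher, while their standard marker Havcr1 overlapped vehicle. 23 of 30 members were above 0, with a median of 0.43, and 5 had an unadjusted p under 0.05: Krt20, Ccl2, C3, Timp2 and Vim (3.68% of all genes). The count was 2 without vehicle replicate 2 and 8 without 0.67 mmol/kg replicate 2. Against the TCE vehicle the list median was 0.08. The macrophage and fibroblast sums given above moved with these genes, and their part was not tested. C3, the central complement protein, measured 15.3 and 23.7 CPM in vehicle, 39.5, 46.6 and 57.2 at 0.22 and 29.4, 30.7 and 63 at 0.67 mmol/kg, and 20, 43.8 and 24.2 in the TCE vehicle. All dosed libraries lay above both PCE vehicle libraries. Havcr1 (KIM-1), the standard marker of proximal tubule injury, measured 2.31 and 2.68 CPM in vehicle, 3.16, 5.25 and 3.92 at the lower and 4.12, 2.43 and 7.41 at the higher dose. These groups overlapped, the log2 fold change was 0.81 ± 0.45 (SE) and the 95% interval was −0.13 to 1.75. In the TCE vehicle Havcr1 measured 6.93, 2.62 and 4.21, so the dosed libraries did not exceed every control kidney. Lcn2 (neutrophil gelatinase-associated lipocalin) measured 0.576 and 1.27 CPM in vehicle, 1.93, 2.38 and 1.29 at 0.22 and 1.81, 1.32 and 2.86 at 0.67 mmol/kg. It differed by 1.04 ± 0.79 with a 95% interval of −0.61 to 2.69, and by −0.86 against the TCE vehicle.

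Immediate early genes, which respond within minutes to growth factors, stretch or handling, were higher in 26 of 29 members, with a median of 0.48. Ctgf (a secreted matricellular protein) measured 39.7 and 35.4 CPM in vehicle, 54.6, 121 and 104 at 0.22 and 53.7, 69.3 and 53 at 0.67 mmol/kg, a difference of 0.98 ± 0.33 (SE). Klf2 (a zinc-finger factor of endothelium), Maff (a small Maf factor) and Ier5 were higher by 0.70, 0.90 and 0.54, and these 4 genes had an unadjusted p under 0.05, against 3.68% of all genes. The count was 1 without vehicle replicate 2, and 2 without replicate 2 of either dose. Fos, the archetype of the class, differed by 0.70 ± 0.55. The TCE vehicle as control gave a median of 0.28.

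**Figure D3:**
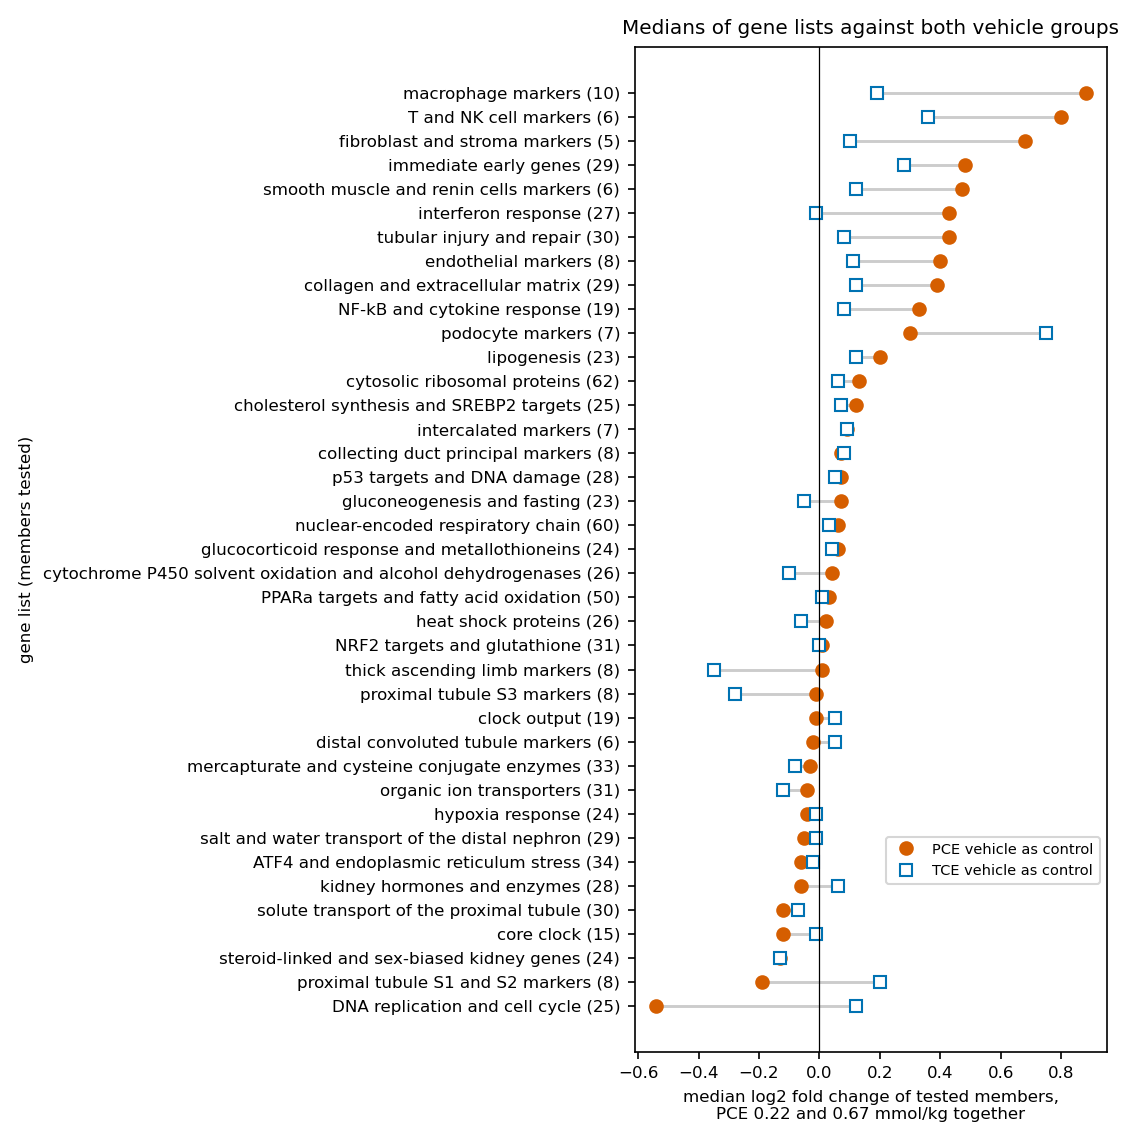
Median log2 fold change of the tested members of each gene list at the 2 low PCE doses together; filled circles use the 2 PCE vehicle libraries as control and open squares the 3 TCE vehicle libraries, and the number of tested members stands in brackets. Macrophage markers lie at 0.88 against the PCE vehicle and 0.19 against the TCE vehicle, and the replication list at −0.54 and 0.12.

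Cyp24a1 was higher at both doses and highest at 0.67 mmol/kg. It encodes the mitochondrial 24-hydroxylase that breaks down active vitamin D, mainly in the proximal tubule (chr2:170482957-170497145). It measured 11.9 and 19.6 CPM in vehicle, 24.5, 46.7 and 62.9 at 0.22 mmol/kg and 109, 71.5 and 132 at 0.67 mmol/kg. Every library at the higher dose lay above every library at the lower dose, and these above vehicle. The log2 fold change was 2.11 ± 0.55 (SE) for both doses together, 1.50 ± 0.57 at 0.22 and 2.72 ± 0.60 at 0.67 mmol/kg, and the 2 doses differed by 1.22 ± 0.48 with an unadjusted p of 0.0192. At 2 and 6 mmol/kg the means were 75.5 and 68.4 CPM, no higher than at 0.67 mmol/kg (104). The TCE vehicle libraries measured 50.8, 57.3 and 29.9, above the PCE vehicle libraries and overlapping the lower PCE dose, and the difference against them was 0.57.

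Pdzd7 (chr19:45026907-45058633), a scaffold protein known from the hair bundles of the inner ear, had the smallest unadjusted p of the named genes (4.02e-05). It measured 1.08 and 0.956 CPM in vehicle, 1.77, 1.97 and 2.08 at 0.22 and 2.04, 1.84 and 1.72 at 0.67 mmol/kg. The groups did not overlap and the log2 fold change was 0.91 ± 0.18 (SE). The TCE vehicle libraries measured 1.84, 2.02 and 2.4, and against them the difference was −0.13. Its level in the 2 PCE vehicle libraries was thus below that of the other vehicle group as well.

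The named lower genes outside replication had log2 fold changes between −0.20 and −1.10. Cdip1 (chr16:4765461-4790292), a mediator of p53-dependent cell death, measured 119 and 124 CPM in vehicle, 110, 113 and 109 at 0.22 and 93.5, 98.8 and 104 at 0.67 mmol/kg, a log2 fold change of −0.21 ± 0.05 (SE). Pzp, an alpha-2-macroglobulin relative, measured 368 and 338, then 297, 284 and 271 and 224, 295 and 269, a difference of −0.37 ± 0.11. Neither gene overlapped between vehicle and dosed libraries. Dnah9, a dynein heavy chain of motile cilia, measured 4.15 and 3.44 CPM in vehicle, 2.56, 1.73 and 1.26 at the lower and 1.58, 1.77 and 1.66 at the higher dose, a difference of −1.10 ± 0.28. Anxa7 (an annexin, a calcium-dependent membrane binder), Tmem237 (of the ciliary transition zone) and Chsy1 (chondroitin sulfate synthase) had log2 fold changes of −0.80, −0.61 and −0.32. Fbxo18 (a DNA helicase) and Fbxo38 (an F-box ubiquitin ligase subunit) differed by −0.20 and −0.23. In the TCE vehicle Cdip1 measured 108, 99.4 and 105 CPM and Pzp 343, 303 and 353.

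PPARα targets lay close to vehicle for both doses together, with more of them higher at 0.67 mmol/kg alone. Of 50 tested targets 30 were above 0, with a median of 0.03, 1 higher and 1 lower at an unadjusted p under 0.05. At 0.22 mmol/kg 0 were higher and 2 lower at that level (4.43% and 1.78% of all genes), and at 0.67 mmol/kg 10 higher and 1 lower (3.99% and 4.27%), with a median of 0.09. The 10 became 4 without 0.67 mmol/kg replicate 1, 4 without vehicle replicate 1 and 1 without vehicle replicate 2. Cyp4a14, a fatty acid omega-hydroxylase, measured 9.14 and 11.9 CPM in vehicle, 12.3, 10.9 and 18.9 at 0.22 and 71.9, 21.5 and 20.4 at 0.67 mmol/kg. All 3 libraries at 0.67 mmol/kg lay above those at 0.22, and replicate 1 was the highest. The difference of both doses from vehicle was 1.12 ± 0.76 (SE, 95% interval −0.47 to 2.72), and 0.70 without replicate 1 of the higher dose. Acot1, a cytosolic acyl-CoA thioesterase, measured 81.9 and 71.7 CPM in vehicle, 71.1, 78.3 and 90.9 at 0.22 and 158, 112 and 138 at 0.67 mmol/kg. The 3 libraries of the higher dose lay above vehicle, and those of the lower dose overlapped it. Angptl4, an inhibitor of lipoprotein lipase, measured 26.3 and 23.3, then 27.1, 38 and 50.1 and 76.8, 39 and 45.6, a difference of 0.87 ± 0.34, and −0.18 against the TCE vehicle.

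For 5 targets the means at the low doses are set beside those at the higher doses. Mean CPM relative to vehicle at 0.22, 0.67, 2 and 6 mmol/kg was 1.33, 3.6, 11.2 and 99.3 times for Cyp4a14, and the 3.6 at 0.67 mmol/kg was 1.99 without replicate 1. For Cyp4a10, its close relative, the ratios were 1.16, 1.61, 3.16 and 7.75, and for Acot1 1.04, 1.77, 2.54 and 5.21. Angptl4 gave 1.55, 2.17, 4.45 and 6.84. Pdk4, a kinase that turns off pyruvate oxidation, gave 2.08, 2.34, 2.24 and 11.1, so its level at 2 mmol/kg was no higher than at 0.67, and without replicate 1 its ratio at 0.67 mmol/kg was 1.55. Reads of Cyp4a and Acot relatives can match several copies, so single members of these families are uncertain in level.

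**Figure D4:**
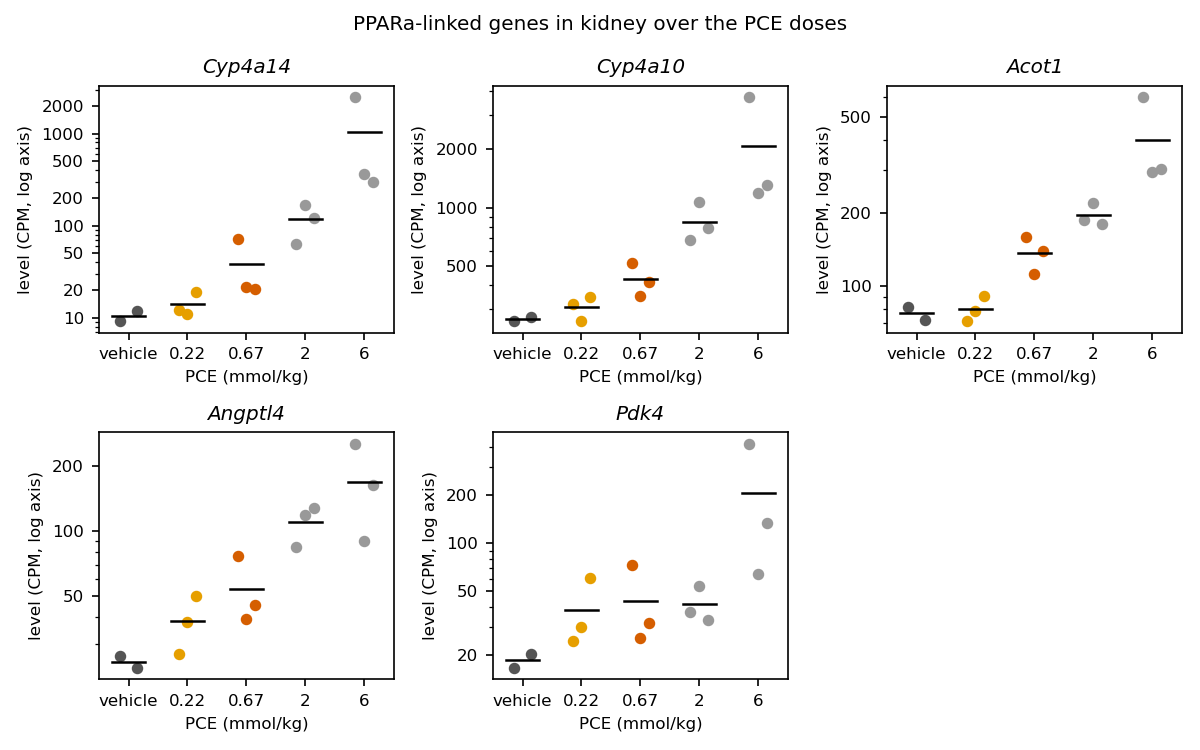
Levels of 5 PPARα target genes in kidney against PCE dose (0, 0.22, 0.67, 2 and 6 mmol/kg), on log axes in CPM; points are libraries and horizontal bars are group means, with no error bars. Mean Cyp4a14 is 10.5 CPM in vehicle, 14 at 0.22, 37.9 at 0.67 and 1046 at 6 mmol/kg.

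Lists of genes that handle PCE itself had medians near 0. The mercapturate and cysteine conjugate list had a median of −0.03 over 33 genes, 1 higher and 0 lower at an unadjusted p under 0.05. Ggt1 (gamma-glutamyltransferase) differed by 0.01 (95% interval −0.20 to 0.22) and Ccbl1, a beta-lyase, by 0.01 (−0.25 to 0.27). Ccbl2, another beta-lyase, was higher by 0.08 to 0.49 as each of the 8 libraries was left out in turn. Its sign turned with the TCE vehicle as control. Acy3, which removes the acetyl group of mercapturates, differed by −0.10 and Fmo1, a sulfoxidising monooxygenase, by 0.06. Among P450 and alcohol dehydrogenase genes the median was 0.04, and Cyp2e1, the main solvent-oxidising P450, differed by −0.01 (−0.35 to 0.33). Of the 26 tested genes of that list 2 were higher and 0 lower at an unadjusted p under 0.05. Of all genes 3.68% and 2.75% were. The list also holds Cyp24a1, the vitamin D enzyme described above. NRF2 targets, the glutathione and quinone defence genes, had a median of 0.01, with 0 of 31 members listed before adjustment, and neither edgeR nor DESeq2 called any (0 and 0). Nqo1 (quinone reductase) differed by −0.05 with an interval of −0.30 to 0.20, and Hmox1 (haem oxygenase) by −0.24. Intervals of this width leave small changes undetectable at this number of libraries.

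Proximal tubule markers were slightly lower than in vehicle. All 8 of 8 S1 and S2 markers were below 0, with a median of −0.19. At an unadjusted p under 0.05 there were 0 of them, against 2.75% of all genes. The sum of these markers was 23420 to 23610 CPM in vehicle and 20090 to 22010 after dosing. Slc22a6 and Slc22a8, the organic anion transporters OAT1 and OAT3 that load conjugates into the tubule cell, differed by −0.19 and −0.32. The marker median against the TCE vehicle was 0.20, with the opposite sign. S3 markers had a median of −0.01 and thick ascending limb markers of 0.01. All 7 podocyte markers were higher, by a median of 0.30, with 0 at an unadjusted p under 0.05, against 3.68% of all genes. Here the TCE vehicle did not lie with the dosed libraries: against it the median was 0.75. The TCE vehicle libraries varied, with summed podocyte markers of 140.7, 272.7 and 360.3 CPM. These sums were 332.5 and 382.6 in the PCE vehicle and 417.2 to 470.3 after dosing. Clock genes were close to the overall median, with Dbp at −0.21, Per1 at −0.29 and Arntl at −0.12, where the signs of Dbp and Per1 turned when vehicle replicate 1 was left out (0.45 and 0.33). Cdkn1a, the p53-induced cell cycle inhibitor, differed by 0.62 (95% interval −0.11 to 1.35), and Mt1, a metallothionein, by 0.04.

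The 2 low doses can be compared with each other without any vehicle library. edgeR called 0 of 14197 genes (0.0%) between 0.67 and 0.22 mmol/kg, DESeq2 called 1 (Nkain1), and 1237 (8.71%) had an unadjusted p under 0.05. PPARα targets were higher at 0.67 mmol/kg in 14 of 50 at that level and lower in 1, against 4.42% and 4.29% of all genes, with a list median of 0.17. The 14 became 8 without 0.67 mmol/kg replicate 1 and 9 without 0.22 mmol/kg replicate 2. Cpt2, which completes carnitine-dependent entry of fatty acids into mitochondria, measured 231, 227 and 254 CPM at 0.22 and 342, 307 and 297 at 0.67 mmol/kg. The libraries did not overlap and the difference was 0.41 ± 0.11 (SE). Acot1 differed by 0.77 ± 0.24, Acot2 by 0.51, Ehhadh (the peroxisomal bifunctional enzyme) by 0.50 and Slc25a20 (the carnitine carrier) by 0.32. Fabp1, a fatty acid binding protein, differed by 0.97 and Ucp2, a mitochondrial carrier, by 0.66.

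Respiratory chain genes had a median of 0.15 between the doses, with 11 of 60 higher and 0 lower at an unadjusted p under 0.05. Of all genes 4.42% were higher and 4.29% lower at that level. Cox5a and Cox5b, subunits of cytochrome oxidase, were higher by 0.34 and 0.49. Cytosolic ribosomal protein genes had a median of 0.18, with 14 of 62 higher and 0 lower. Both counts moved with single libraries: leaving out 0.67 mmol/kg replicates 1, 2 and 3 in turn gave 5, 29 and 8 respiratory and 4, 30 and 3 ribosomal genes, and leaving out 0.22 mmol/kg replicates 1, 2 and 3 gave 5, 13 and 7 and 3, 10 and 13. These are short and abundant transcripts, and the libraries differed in how level varied with transcript length. In PCE 0.67 mmol/kg replicates 1 and 3 the log2 level relative to the mean of the libraries changed by −0.098 and −0.065 per doubling of length, against 0.002 in replicate 2 and −0.008 to 0.026 at 0.22 mmol/kg, and the part of length in the ribosomal and respiratory results was not tested.

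Nkain1, which encodes a membrane protein that binds the sodium pump, had the smallest p between the doses. It measured 28.2, 22.4 and 28 CPM at 0.22 and 69.8, 41.5 and 40.3 at 0.67 mmol/kg, a difference of 0.95 ± 0.21 (SE) with an adjusted p of 0.51 in edgeR and 0.0481 in DESeq2. Hps6 (of lysosome-related organelles) and Lpcat3 (which remodels membrane phospholipids) were higher by 0.36 and 0.32. Nufip2 (an RNA-binding protein), Ston1 (an endocytic adaptor) and Ddx3y (an RNA helicase of the Y chromosome) had log2 fold changes of −0.43, −0.73 and −0.64. Nr1d1, the clock repressor REV-ERBα, differed by −1.02 between the doses with an unadjusted p of 0.00376.

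Markers of tissue next to the kidney also differed between the doses. Summed brown and white fat markers measured 48.8 to 137 CPM at 0.22 mmol/kg, 6.08 to 12.7 at 0.67 mmol/kg, 4.38 to 23.9 in vehicle and 12.9 to 49.4 in the TCE vehicle. Urothelial markers, of the lining of the renal pelvis, measured 4.11 to 18.5 CPM at 0.22 mmol/kg against 0.938 to 1.5 at 0.67 and 0.765 to 1.19 in vehicle. 5 of 5 urothelial and 3 of 8 fat markers were lower at 0.67 than at 0.22 mmol/kg at an unadjusted p under 0.05. Of all genes 4.29% were lower at that level. Urothelial members lay near the floor at 0.67 mmol/kg and in vehicle. They may have passed the filter on low counts only through libraries where they are high, so their count is no independent support. The 5 became 1 without 0.22 mmol/kg replicate 2 and 3 without 0.67 mmol/kg replicate 2, and the 3 became 1 without 0.67 mmol/kg replicate 1 or 2 and 0 without replicate 3. All 3 libraries at 0.22 mmol/kg exceeded vehicle and 0.67 mmol/kg in both sums. When only these 6 libraries entered the fit, edgeR called 65 genes between the doses, 15 higher and 50 lower, and the lower ones included the fat genes Adipoq (adiponectin) and Plin4 (a lipid droplet coat protein). Both genes were picked after their values were seen. The part of adhering fat and pelvis in the differences between the doses, and in the matrix genes at 0.22 mmol/kg, was not tested.

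**Figure D5:**
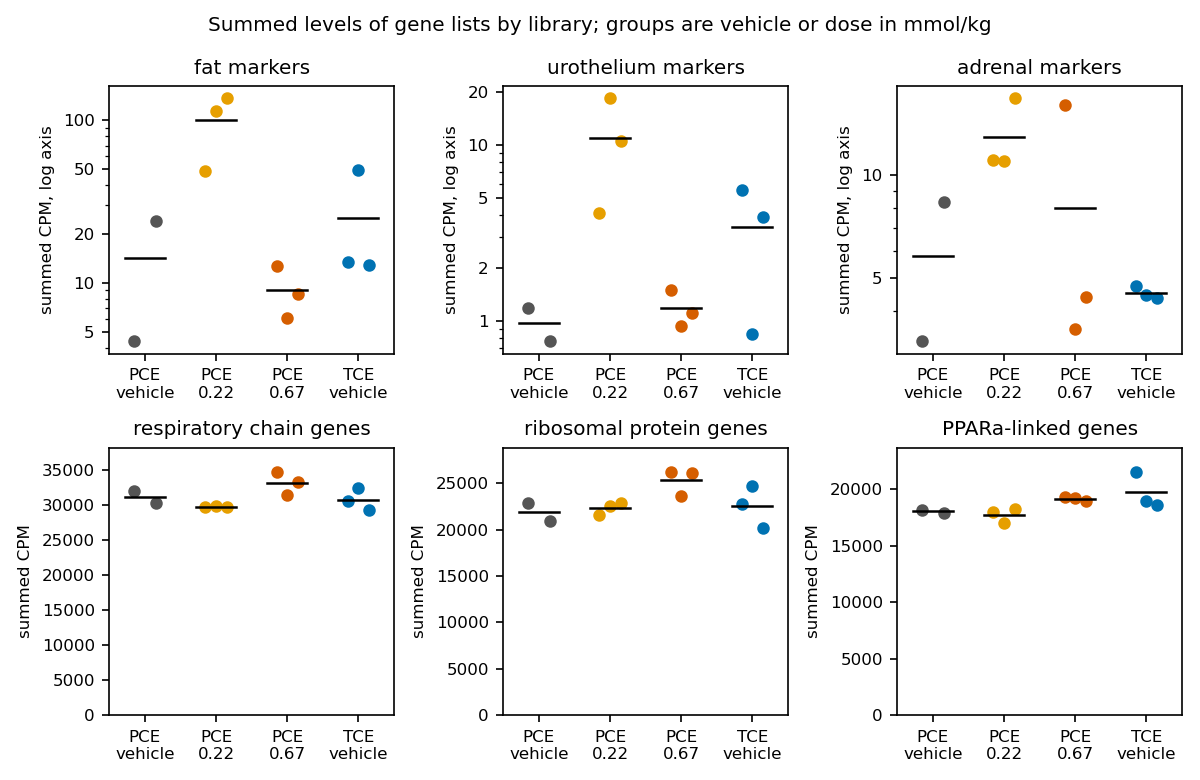
Summed CPM of fat, urothelium and adrenal markers (top, log axes) and of respiratory chain, ribosomal protein and PPARα-linked genes (bottom, linear axes from 0) in PCE vehicle, PCE 0.22 mmol/kg, PCE 0.67 mmol/kg and TCE vehicle; each point is 1 library and bars are group means. Fat markers lie at 48.8 to 137 CPM at 0.22 mmol/kg and 6.08 to 12.7 at 0.67 mmol/kg, and urothelium markers at 4.11 to 18.5 and 0.938 to 1.5.

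Against vehicle on its own, the lower dose listed 882 genes (6.21%) at an unadjusted p under 0.05, 629 higher (4.43%) and 253 lower (1.78%), and the higher dose 1173 (8.26%), 567 higher (3.99%) and 606 lower (4.27%). At 0.22 mmol/kg the macrophage median was 0.92 and the matrix median 0.57, and at 0.67 mmol/kg they were 0.84 and 0.28. The named genes of the lower dose included Cmklr1 (the chemerin receptor of macrophages and dendritic cells) at 1.17 and Mgl2 (a C-type lectin of alternatively activated macrophages) at 0.96, and on the lower side Slc10a1 (a bile acid carrier) at −1.30. At the higher dose Lyz2 was at 1.35, Cd302 (a phagocyte lectin) at 0.44, Mcm4 at −0.91 and Cdip1 at −0.30. Each dose shares the same 2 vehicle libraries, so the 2 sets of values are not independent.

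TCE differs from PCE in carrying hydrogen in the place of 1 chlorine, and both were given at 0.22 and 0.67 mmol/kg. The low-dose response to PCE minus that to TCE, each against its own vehicle, had 0 called genes in edgeR and 0 in DESeq2 (adjustment over 14197 genes), and 1154 genes (8.13%) at an unadjusted p under 0.05, 466 higher (3.28%) and 688 lower (4.85%). Pdzd7 had the smallest adjusted p (0.147). Its TCE vehicle libraries measured 1.84, 2.02 and 2.4 CPM, with 1.34, 1.46 and 1.35 at 0.22 and 2.19, 1.64 and 1.82 at 0.67 mmol/kg TCE, and the responses differed by 1.28 ± 0.23 (SE, 95% interval 0.80 to 1.75). Zfp85os and Col7a1 (anchoring-fibril collagen) were higher in the PCE response by 1.14 and 1.03, and Scube3 (a secreted signalling protein), Sptlc3 (a subunit of serine palmitoyltransferase) and Ints6 (of the Integrator complex) were lower in it, with differences of −0.95, −1.21 and −0.59. The replication list differed by a median of −1.04 and the macrophage markers by 0.66.

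For single genes of PPARα signalling, injury and conjugate handling the intervals of the difference were wide. Cyp4a14 responses differed by 1.05 with a 95% interval of −0.98 to 3.09, Acot1 by 0.68 (0.02 to 1.35), Havcr1 by 1.47 (0.25 to 2.68) and Cyp24a1 by 1.27 (−0.10 to 2.63). The intervals of Acot1 and Havcr1 lie above 0 before adjustment over all genes, and their adjusted p in edgeR was 0.602 and 0.569. TCE vehicle values of Havcr1 (6.93, 2.62 and 4.21 CPM) enter its difference. Ggt1 differed by 0.25 (−0.03 to 0.53). Intervals that hold 0 do not show that the compounds act alike. This comparison contains both vehicle groups, so a difference between them enters it whole.

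The vehicle groups themselves, treated alike by their labels, were compared last. edgeR called 0 genes between the 2 PCE and 3 TCE vehicle libraries and DESeq2 0, and 1154 genes (8.13%) had an unadjusted p under 0.05, a larger share than for low PCE against vehicle (6.43%). Pdzd7 was lower in the PCE vehicle, with a log2 fold change of −1.04 ± 0.20 (SE), as were Khnyn (an RNA-binding nuclease-like protein) with −0.48 and the imprinted antisense RNA Kcnq1ot1 with −0.62. Man2b2 (a lysosomal mannosidase), Lrrc41 and Ttyh3 (a chloride channel) were higher by 0.39, 0.28 and 0.34. The replication list had a median of 0.71, with 11 of 25 genes higher in the PCE vehicle at that level against 4.04% of all genes (4.09% in the other direction). It was 3 without PCE vehicle replicate 2 and 5 without TCE vehicle replicate 1 or 2. The macrophage markers had a median of −0.67. These values share the 2 PCE vehicle libraries with the low-dose comparison, so their opposite signs are no independent result. Against the TCE vehicle the low PCE doses had 899 genes at an unadjusted p under 0.05, 398 higher and 501 lower, and against all 5 vehicle libraries 751.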

How the data were processed

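RNA was sequenced from mouse kidney, 1 library per sample. For each library, the deposited kidney table lists unnormalized counts of reads by RefSeq transcript, per the file headers. Because a decimal dose stands above the values of the 0.22 and 0.67 mmol/kg libraries, these deposited columns were handled under the unit expected counts. Their values were whole, so no rounding took place. Tools listed in the submitters' processing notes, with no roles, are TopHat2 2.0.10, HTSeq and CASAVA 1.8.2, and the build listed is mm10. Strand setting and filters are not given in the sources used here. Lines for ambiguous reads (19.68 to 21.39% of a library) and reads in no feature (20.49 to 27.53%) were left out of totals and tests, so overlapping, antisense and near-identical genes are uncertain in level.

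Counts were summed from 33392 transcripts to 24037 genes by the deposited symbol, with 3704 transcripts named from the RefSeq gene table of GRCm38.p6 and 126 kept under their accession. After edgeR's filter on low counts 14197 genes remained. edgeR 4.0.16 (R 4.3.3) fitted 1 mean per group over all 29 kidney libraries, which held 23247565 to 32420329 counts, with TMM scaling and the robust quasi-likelihood test, two-sided, with Benjamini-Hochberg adjustment and a threshold of 0.05. The low doses were the mean of the 2 dose groups minus vehicle, and 5 further comparisons were made in the same fit. Intervals of 95% and SE come from that fit. CPM are counts per 1000000 of the TMM-scaled library size. DESeq2 1.42.0, DESeq2 size factors, no count filter, fewer libraries, other vehicle groups, each library left out and a replicate block were the alternatives, and the scripts were tested on simulated data. Figures were drawn with matplotlib 3.10.9 in Python 3.11.15.

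Replicates of all 28 same-group pairs differed by more than sampling noise (chi-square per degree of freedom at least 14.6). Same-numbered libraries of the 3 PCE groups did not deviate together. The genes named were the 10 higher and 10 lower genes with the smallest unadjusted p whose mean over the 8 libraries reached 1 CPM, leaving out predicted names, 3 and 3 in other comparisons, and 25 genes reported whatever their value. Features known only by accession were also left out of the naming, an exclusion added after the values were seen. Some items are not reported here. The 27 function lists and 20 marker lists, like the comparison itself, were chosen with earlier results of these data known.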

Additional observations from a re-analysis of the deposited data

Results flagged for a closer look

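Among 86 checks of single values over the 6 low-dose libraries, 3 had an end value whose gap to the next library was large for the log2 range of all 6, and chance gives about 1 in 20. All 3 concern PCE 0.67 mmol/kg replicate 1, which that rate does not cover because the checks share libraries. In that library Pzp was lowest at 224 CPM, with the next value at 269. Cyp4a14 was highest there at 71.9 CPM, with the next at 21.5. Summed neutrophil markers were highest there at 3.27 CPM, with the next at 1.52. Without this library the difference of Cyp4a14 from vehicle was 0.70 on the log2 scale.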

How the results depend on the processing

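For the low doses against vehicle edgeR called 0 genes under every alternative run in edgeR, and DESeq2 called 5. For 0.22 mmol/kg the fit of the groups compared only called 3 genes (Tnn, Angpt2 and Ugt2b5), for 0.67 mmol/kg 1 (Serping1), where DESeq2 called 3, and between the doses 65, where DESeq2 called 1. Fitting the groups compared only raised the genes at an unadjusted p under 0.05 to 1523 for the low doses, 1432 and 1869 for the single doses and 1899 between the doses. Leaving out 1 library at a time gave 539 to 1202 genes at that level for the low doses, lowest without PCE vehicle replicate 2. The range was 445 to 1211 for 0.22 mmol/kg, lowest without vehicle replicate 1, 554 to 1542 for 0.67 mmol/kg, lowest without vehicle replicate 2, and 527 to 1378 between the doses, lowest without 0.67 mmol/kg replicate 1. For PCE minus TCE it was 743 to 1515, lowest without PCE vehicle replicate 2, with 0 to 1 called genes (Slc29a4 without TCE 0.67 mmol/kg replicate 2), and for the vehicle groups 548 to 1203, lowest without PCE vehicle replicate 1. Against the TCE vehicle 899 genes, against both vehicle groups pooled 751, and without TCE vehicle replicate 3 in the pool 909 (642 higher, 267 lower) were at that level. The TCE vehicle as control and the pool without replicate 3 were chosen after seeing the data. With the replicate block the low doses had 0 called genes and 920 at an unadjusted p under 0.05, against 913 without, and the pairing correlations lay between −0.131 and −0.007, so the numbers were not taken to pair the samples.

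DESeq2 gave an adjusted p of 0.0265 for Lyz2, C1qb, Cyp24a1 and Gsdmc3 and 0.0337 for Cdip1 at the low doses. With the TCE vehicle as control the sign turned for Pdzd7 (−0.13, and −0.11 and −0.16 at the single doses), Cdip1 (0.01), Havcr1 (−0.06), Lcn2 (−0.86), Angptl4 (−0.18), Cyp2e1 (0.04), Ggt1 (−0.08), Ccbl2 (−0.43), Fmo1 (−0.01), Slc22a8 (0.09), Dbp (0.16) and Per1 (0.22). With both vehicle groups pooled it turned for Lcn2 (−0.34), Cyp2e1 (0.03), Ggt1 (−0.04), Ccbl2 (−0.15) and Dbp (0.00). Without TCE vehicle replicate 3 in the pool it turned for Lcn2 (−0.27), Ggt1 (−0.08), Ccbl1 (−0.03), Ccbl2 (−0.08), Dbp (0.15) and Per1 (0.09). Leaving out 1 library at a time, the sign turned within −0.11 to 0.10 for Cyp2e1, −0.03 to 0.06 for Ggt1, −0.04 to 0.05 for Ccbl1, −0.03 to 0.16 for Fmo1, −0.67 to 0.45 for Dbp, −0.77 to 0.33 for Per1, −0.53 to 0.13 for Nr1d1 and −0.05 to 0.14 for Mt1. The cause was not tested in any of these. Among the named genes 1142 values under an alternative stayed on their side, 40 turned sign and 8 passed the threshold, and 77 list medians moved against 722 that did not. The intervals rest on 2 vehicle libraries.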
